A study of Mus musculus with 6 samples.

Results

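The 10 genes described here belong to the Bcl2 family, whose proteins set whether a cell survives or dies through its mitochondria. They were selected by gene symbol among the 13564 genes of the deposited normalized table. The genes were Bcl2, Bcl2l1, Mcl1, Bcl2a1b and Bcl2a1d, which promote survival, Bcl2l11, Bbc3 and Pmaip1, which initiate death, and Bax and Bak1, which execute it. All 10 passed the filter on low counts, as did 13691 of the 55487 genes in the count files. RNA was sequenced from 6 cultures of CD4 T cells, 3 from Foxo1TKO mice and 3 from Foxo1Ctrl mice, all on the C57BL/6 background. Foxo1TKO mice carry CD4-cre and loxP-flanked (fl/fl) Foxo1 alleles, so Foxo1 is deleted from the CD4+CD8+ thymocyte stage on in both T-cell lineages. Foxo1Ctrl mice carry the same fl/fl alleles without Cre, and the study's methods place both on a Foxp3-GFP reporter background and use mice of 3 months unless stated otherwise. Naive CD4 T cells were sorted from lymph nodes. They were activated for 4 days with soluble anti-CD3 at 0.1 µg/ml and 250000 splenocytes of CD3eKO mice, which have no T cells. Per the labels each culture held 50000 T cells, and the methods give a higher number. Neither source states whether T cells were separated from splenocytes before RNA extraction or whether the replicates were separate mice, so p-values measure the spread between these libraries, which may be technical.

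Pro-survival family proteins bind and restrain the effectors Bax and Bak at the outer mitochondrial membrane. BH3-only proteins, which share a single short homology domain with the rest of the family, neutralize the pro-survival proteins or activate the effectors directly. Freed effectors form pores, cytochrome c leaves the mitochondria, and caspases are switched on. In T cells, Bcl2 is known for sustaining resting cells downstream of IL-7, Bcl-xL and A1 are known as induced upon antigen receptor signalling, and Bim, the product of Bcl2l11, is known for removing activated cells. Foxo1 is a forkhead transcription factor, and Bim and Puma are textbook targets of Foxo proteins.

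In the progeny of Foxo1TKO cells, Bcl2 and Mcl1 were lower than in those of Foxo1Ctrl cells by 2.06-fold and 1.78-fold, and the A1 genes Bcl2a1b and Bcl2a1d were higher by 1.89-fold and 2.7-fold. Pmaip1, which encodes the Mcl1-binding protein Noxa, was 2.57-fold lower. Neither effector gene nor the BH3-only genes Bcl2l11 and Bbc3 passed the test. A gene was called at an edgeR quasi-likelihood p under 0.05 after Benjamini-Hochberg adjustment over all genes tested, with a fold change over 1.5. By this rule 5 of the 10 members were called, against 23.0% of all genes tested, 2 of them higher against 11.1% and 3 of them lower against 11.8%. The 3 libraries of one genotype all lay beyond the 3 of the other for 6 of the 10 members, against 42.7% of all genes. The median log2 fold change of Foxo1TKO over Foxo1Ctrl was 0.31 over the 10 members and 0.011 over all genes. No permutation p is given for single members, since 3 libraries a genotype allow none below 0.1 in a two-sided test.

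Foxo1 itself was at 85.4, 46.5 and 115 TMM-normalized counts in the 3 Foxo1TKO libraries and at 1529, 2285 and 1598 in the Foxo1Ctrl libraries, in replicate order. TMM scales each library to a common effective depth. The log2 fold change was -4.45 (SE 0.36, edgeR adjusted p = 0.000195), in the direction of the labels. Counts are over the whole gene, and which exons the deletion removes is not given in the sources used here. Library totals ran from 14783853 to 19675407 expected counts. Summed T-cell markers stood at 173244 to 178272 normalized counts in Foxo1TKO and 196113 to 211095 in Foxo1Ctrl libraries. The Cd4 marker was at 4630 ± 2759 (SD, n = 3) and 5702 ± 3034. Of the CD8 markers, Cd8a averaged 12.2 in Foxo1TKO, with libraries from 0 to 28.1, and 0.646 in Foxo1Ctrl. The more abundant Cd8b1 went the other way, at 91.2 to 116.7 in Foxo1TKO and 144.3 to 160.1 in Foxo1Ctrl libraries, and was not called. Summed B-cell markers were at 5053 to 6200 in Foxo1TKO and 13071 to 21828 in Foxo1Ctrl, most of it Ighm. Of the 9 tested, 8 had a negative log2 fold change and 5 were called lower, against 11.8% of all genes. Macrophage markers summed to 65.8 to 100.9 and 44.6 to 56.0, with Mertk and C1qa at 0 in every library, and neutrophil markers summed to 4.29 to 33.3 and 3.58 to 9.69. Of the dendritic-cell markers, Itgax reached 350 to 485 in Foxo1TKO against at most 1 count in any Foxo1Ctrl library. The lowest Foxo1TKO library was at least 97.8-fold higher than the highest floor of 3 counts per Foxo1Ctrl library, which covers counting error only. In the same list Zbtb46 averaged 128 in Foxo1TKO and 179 in Foxo1Ctrl, and Flt3 1.73 and 4.39. Proliferation markers were called higher for 4 of 10 genes and lower for none, against 11.1% and 11.8% of all genes tested. In such bulk samples fewer cells of a type and less RNA per cell cannot be told apart, and the part of these differences in the results was not tested.

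The A1 genes are near-identical copies, which bears on how their reads were assigned. Bcl2a1b (ENSMUSG00000089929) lies on the forward strand at chr9:89199209-89207827 of GRCm38 and Bcl2a1d (ENSMUSG00000099974) on the reverse strand at chr9:88723285-88731914. Both have a coding sequence of 519 bases, with 6 mismatches between them (98.8% identity). The first 120 coding bases of the GENCODE M21 transcripts are shown because this window holds the most mismatches of any of its length, 3, which are in capitals.
Bcl2a1b: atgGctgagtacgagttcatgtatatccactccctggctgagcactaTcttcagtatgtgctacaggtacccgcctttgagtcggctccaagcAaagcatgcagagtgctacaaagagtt
Bcl2a1d: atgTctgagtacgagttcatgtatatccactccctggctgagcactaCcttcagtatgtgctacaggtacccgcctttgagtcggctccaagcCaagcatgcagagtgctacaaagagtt

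Of all stretches of 75 bases in the Bcl2a1b transcript (817 bases), 43.5% were also found in that of Bcl2a1d (863 bases), and 31.1% of the stretches of 100 bases were. Deposited counts of both genes were fractional, since RSEM divides a read that maps to several genes between them. Their upstream sequences were alike too. The 186 bases printed here run from the start of each RefSeq promoter window to the gene's outermost GENCODE start, on the strand of the gene, and capitals mark the longest run that both windows hold, 84 bases.
Bcl2a1b, chr9:89199023-89199208: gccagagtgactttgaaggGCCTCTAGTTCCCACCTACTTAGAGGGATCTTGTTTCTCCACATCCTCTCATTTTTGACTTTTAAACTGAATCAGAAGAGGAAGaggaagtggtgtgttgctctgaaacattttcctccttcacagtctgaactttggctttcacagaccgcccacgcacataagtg
Bcl2a1d, chr9:88731915-88732100: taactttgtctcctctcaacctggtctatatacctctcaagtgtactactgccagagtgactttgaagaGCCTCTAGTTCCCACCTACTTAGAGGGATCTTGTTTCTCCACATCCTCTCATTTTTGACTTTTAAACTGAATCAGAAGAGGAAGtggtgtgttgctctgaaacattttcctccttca

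The forkhead motif recognized by Foxo proteins was searched as GTAAACA on both strands (TGTTTAC on the other) in RefSeq promoter windows of GRCm38.p6, from 250 bases before to 50 bases after each annotated start. Of the members, 9 had at least 1 window and 2 of these held the motif, Bcl2l11 and Bbc3, beside 3.65% of all 32851 windows and 4.05% of the 27025 genes with a window. Neither of these 2 members was called between the genotypes. The motif and up to 25 bases on each side are shown with the motif in capitals. It lay 227 bases before the start in the Bcl2l11 window and 167 bases before one of 3 annotated starts of Bbc3, where the GENCODE annotation has no exon. The match is of letters only.
Bcl2l11, chr2:128125788-128125842, forward strand: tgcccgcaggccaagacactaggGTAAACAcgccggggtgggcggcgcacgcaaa
Bbc3, chr7:16310069-16310125, forward strand: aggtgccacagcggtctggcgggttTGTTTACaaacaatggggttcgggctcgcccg

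Among the pro-survival genes, Bcl2 (ENSMUSG00000057329, chr1:106538178-106714274, reverse strand) was lower in the absence of Foxo1. Its level was 1395, 1647 and 1631 normalized counts in the Foxo1TKO libraries and 2738, 3751 and 3125 in the Foxo1Ctrl libraries. Every Foxo1TKO library lay below every Foxo1Ctrl library. On the log2 scale the fold change was -1.04 (SE 0.17, adjusted p = 0.00372). It stayed between -1.15 and -0.90 when any 1 library was left out and was called each time. An antisense gene, D630008O14Rik, overlaps its exons and reached 59.2 to 192 normalized counts. The strandedness of the counting is not given in the sources used here, so reads of the pair may be mixed.

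Mcl1 (ENSMUSG00000038612, chr3:95658788-95663176, forward strand) encodes a short-lived guardian that lymphocytes need at most stages of their life. It was at 2163, 2744 and 2722 normalized counts in Foxo1TKO and at 4199, 5399 and 3977 in Foxo1Ctrl libraries. The genotypes did not overlap for Mcl1 either. Its log2 fold change was -0.83 (SE 0.18, adjusted p = 0.0125), called in each of the 6 fits with a library left out. Foxo1TKO replicate 1 was the lowest and Foxo1Ctrl replicate 2 the highest library for both Mcl1 and Bcl2.

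The A1 genes went in the opposite direction. Bcl2a1b was at 3510, 3667 and 3596 normalized counts in Foxo1TKO and at 1432, 2376 and 1883 in Foxo1Ctrl libraries. Bcl2a1d was at 3502, 4117 and 4009 in Foxo1TKO and at 993, 1965 and 1347 in Foxo1Ctrl. For both genes all Foxo1TKO libraries were above all Foxo1Ctrl libraries, and the Foxo1Ctrl libraries spread more, with replicate 1 lowest and replicate 2 highest. The log2 fold change of Bcl2a1b was 0.92 (SE 0.20, adjusted p = 0.0123). Without Foxo1TKO replicate 2 it was 0.91 with an adjusted p of 0.0589 and was no longer called. That of Bcl2a1d was 1.43 (SE 0.25, adjusted p = 0.00513) and was called with any library left out.

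Because reads may be divided between the copies, Bcl2a1a, Bcl2a1b, Bcl2a1c and Bcl2a1d were also summed as 1 feature. The sum was 7033, 7822 and 7631 normalized counts in Foxo1TKO and 2441, 4355 and 3242 in Foxo1Ctrl libraries. No library of one genotype fell within the range of the other. Its log2 fold change was 1.16 (SE 0.22, adjusted p = 0.00705), ranged from 0.97 to 1.41 with a library left out, and was called in all 6 of these fits. The same-strand transcript model Gm29094, which overlaps exons of Bcl2a1b, held 43.6 to 131 normalized counts.

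Bcl2l1 (ENSMUSG00000007659, chr2:152780668-152831728, reverse strand), which encodes Bcl-xL, varied more within each genotype than between them. It was at 500.3, 148 and 95.5 normalized counts in Foxo1TKO and at 203, 21.7 and 146 in Foxo1Ctrl libraries. The highest library was Foxo1TKO replicate 1 and the lowest Foxo1Ctrl replicate 2, and the genotypes overlapped. Highest and lowest differed 5.24-fold among Foxo1TKO and 9.33-fold among Foxo1Ctrl libraries. The log2 fold change of 1.00 had an SE of 0.81 and an adjusted p of 0.415, and it was -0.021 without Foxo1TKO replicate 1.

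**Figure D1:**
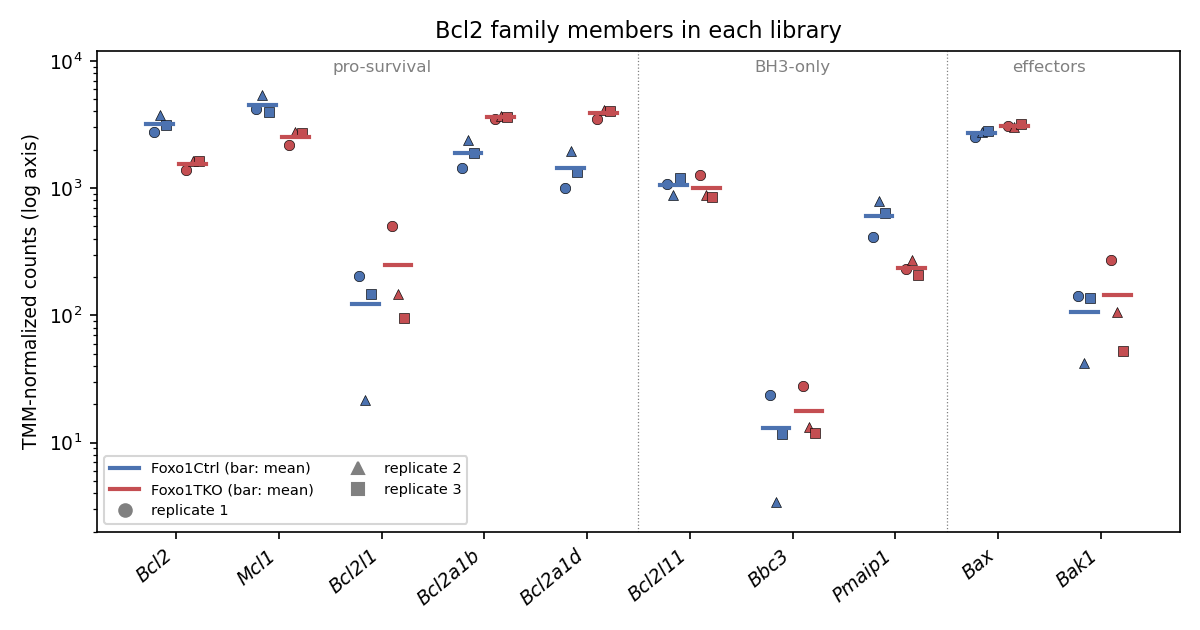
TMM-normalized counts (log axis) of the 10 members in each of the 3 Foxo1Ctrl (blue) and 3 Foxo1TKO (red) libraries. Symbols mark the replicate number and bars the group mean. Bcl2, Mcl1 and Pmaip1 lie lower and Bcl2a1b, Bcl2a1d and Bax higher in all Foxo1TKO libraries, while Bcl2l1, Bbc3 and Bak1 spread widely within both genotypes.

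Among the BH3-only genes, Bcl2l11 (ENSMUSG00000027381, chr2:128126038-128162547, forward strand) was at similar levels in both genotypes. It was at 1266, 886 and 848 normalized counts in Foxo1TKO and at 1067, 885 and 1207 in Foxo1Ctrl libraries. The 2 sets of values were interleaved. The log2 fold change was -0.075 (SE 0.21, adjusted p = 0.832), and its sign turned when Foxo1TKO replicate 2, Foxo1TKO replicate 3 or Foxo1Ctrl replicate 3 was left out, with values of 0.016 to 0.035. Counts are per gene, so the splice forms of Bim were not told apart.

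Pmaip1 (ENSMUSG00000024521) was the member with the largest decrease. It was at 232, 270 and 206 normalized counts in Foxo1TKO and at 409, 784 and 632 in Foxo1Ctrl libraries. The genotypes did not overlap, and Foxo1Ctrl replicate 1 was the Foxo1Ctrl library nearest to the Foxo1TKO range. Its log2 fold change was -1.36 (SE 0.26, adjusted p = 0.00850), and it ran from -1.59 to -1.12 with a library left out, called each time.

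Bbc3 (ENSMUSG00000002083, chr7:16308393-16318205, forward strand), which encodes the p53-inducible protein Puma, was the least abundant member. It was at 27.9, 13.2 and 11.8 normalized counts in Foxo1TKO and at 23.8, 3.43 and 11.6 in Foxo1Ctrl libraries. The genotypes overlapped, and every library held few counts. Its log2 fold change of 0.43 (SE 0.63, adjusted p = 0.671) stood at -0.048 without Foxo1TKO replicate 1.

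Of the effectors, Bax (ENSMUSG00000003873, chr7:45461697-45466898, reverse strand) was at 3050, 3022 and 3188 normalized counts in Foxo1TKO and at 2505, 2758 and 2804 in Foxo1Ctrl libraries. All Foxo1TKO libraries lay above all Foxo1Ctrl libraries, by a small margin. The difference of 0.20 on the log2 scale (SE 0.13) did not pass the test (adjusted p = 0.313), and it was -0.13 after a correction for GC content. Bax transcripts had 63.5% G and C in the longest form, against a median of 48.7% over the genes tested.

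Bak1 (ENSMUSG00000057789, chr17:27019810-27029009, reverse strand), the other pore-forming effector, was at 273, 107 and 52.6 normalized counts in Foxo1TKO and at 143, 42.3 and 136 in Foxo1Ctrl libraries. The genotypes overlapped. Its log2 fold change of 0.43 had an SE of 0.64 and an adjusted p of 0.673, and it was -0.42 without Foxo1TKO replicate 1. Exons of Ggnbp1, on the other strand, overlap Bak1 and held 6.86 to 48.3 normalized counts.

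For Bcl2l1, Bbc3 and Bak1, Foxo1TKO replicate 1 was the highest library and Foxo1Ctrl replicate 2 the lowest, while the libraries between them differed in order. The same 2 libraries were the extremes for 1819 of the genes tested, or 13.3%. The longest transcripts of those genes had a median of 53.6% G and C. The TMM factor, which corrects for differences in composition, was 1.10 in Foxo1TKO replicate 1 and 0.889 in Foxo1Ctrl replicate 2, the highest and the lowest of the 6. Whether base composition has a part in the spread of the 3 genes was not tested. None of them was called in the main fit or with the correction for GC content, and a call does not measure their spread.

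Levels of different genes were compared per transcript length, as the deposited TPM (length-scaled transcript abundances that sum to the same total in every library). In Foxo1TKO libraries Bcl2a1d and Bcl2a1b stood highest, at 369 ± 15.9 and 367 ± 26.0 TPM (SD, n = 3), with overlapping ranges. Bax followed at 295 ± 15.95 TPM, Mcl1 at 51.8 ± 3.45, Bcl2 at 19.9 ± 1.45 and Bcl2l11 at 16.4 ± 5.86, and of these only the ranges of Bcl2 and Bcl2l11 overlapped. Then came Bcl2l1 at 7.75 ± 7.61, Pmaip1 at 6.54 ± 0.806 and Bak1 at 5.67 ± 4.98 TPM. From Bcl2l11 to Bak1 each range overlapped the next, and Bbc3 lay below at 0.823 ± 0.501.

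In Foxo1Ctrl libraries the order differed at the top. Bax was highest at 249 ± 19.97 TPM, above Bcl2a1b at 184 ± 30.2 and Bcl2a1d at 129 ± 31.0, and the last 2 overlapped. Mcl1 at 88.5 ± 5.44 and Bcl2 at 42.8 ± 5.45 TPM lay apart from their neighbours. Bcl2l11 at 16.6 ± 4.09 and Pmaip1 at 16.5 ± 2.69 could not be ordered. The range of Bak1, at 4.07 ± 2.38, overlapped that of Bcl2l1, at 3.78 ± 2.69, which overlapped that of Bbc3, at 0.530 ± 0.437. Bak1, at 1.33 to 5.56 TPM, and Bbc3, at 0.12 to 0.99, did not overlap. Within every Foxo1Ctrl library Bbc3 was below Bcl2l1.

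The make-up of the pro-survival transcripts differed between genotypes, as the stacked plot of TPM shows. The 4 A1 genes made up 90.2 to 90.4% of the summed pro-survival TPM in Foxo1TKO and 65.5 to 72.04% in Foxo1Ctrl libraries. Bcl2 made up 2.15 to 2.68% and 9.28 to 9.66%, and Mcl1 5.73 to 6.65% and 18.0 to 23.2%. Without the A1 genes the sum was 74.8 to 83.2 TPM in Foxo1TKO and 131 to 142 TPM in Foxo1Ctrl libraries, and with them 774 to 846 and 379 to 508 TPM. These shares rest on the same values as the tests above and are given as a description. They count transcripts, and TPM of the A1 copies shares the uncertainty of their reads.

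**Figure D2:**
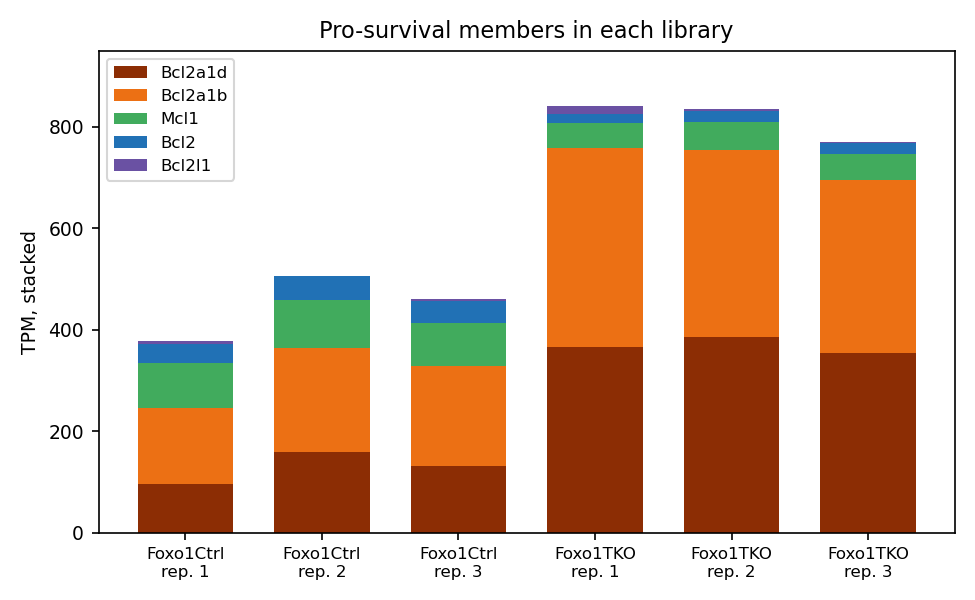
TPM of the 5 pro-survival members, stacked for each library on a linear axis from 0. Bcl2a1b and Bcl2a1d fill most of every bar, more so in the 3 Foxo1TKO libraries, where the Mcl1 and Bcl2 segments are smaller than in the 3 Foxo1Ctrl libraries.

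Pairs of members were set side by side as TPM ratios within each library, first Bcl2 with Bim and Mcl1 with Noxa, which are known to bind each other. Bcl2 to Bcl2l11 was 0.792, 1.46 and 1.75 in Foxo1TKO and 2.04, 3.92 and 2.24 in Foxo1Ctrl libraries. The genotypes did not overlap, while Bcl2l11 itself was interleaved between them. This ratio leaves out the A1 genes, at 90.2 to 90.4% of the summed pro-survival TPM in Foxo1TKO and 65.5 to 72.04% in Foxo1Ctrl. It does not give the balance of all pro-survival transcripts to Bcl2l11. Mcl1 to Pmaip1 was 6.86, 7.99 and 9.18 in Foxo1TKO and 6.59, 5.24 and 4.59 in Foxo1Ctrl libraries, so this ratio was higher in Foxo1TKO although both transcripts were lower. The ratio of the A1 copies, Bcl2a1d to Bcl2a1b, was 0.932 to 1.05 in Foxo1TKO and 0.648 to 0.773 in Foxo1Ctrl libraries.

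Beyond the 10 members, the family was represented by 16 listed genes, of which 11 passed the filter on low counts. Of these, 4 were called higher and 2 lower, against 11.1% and 11.8% of all genes tested. Bnip3, a mitochondrial protein of hypoxia and mitophagy, fell from 4157 ± 739 to 519 ± 95.3 normalized counts (SD, n = 3, log2 fold change -2.999, SE 0.21, adjusted p = 0.000128), farther than any member. Its relative Bnip3l, at 8669 ± 2310 and 4810 ± 708, was 1.80-fold lower, and this call was lost without Foxo1TKO replicate 1 or 2. Bid, the BH3-only protein that links death receptors to mitochondria, rose from 678 ± 80.0 to 1160 ± 149 (log2 fold change 0.77, SE 0.17, adjusted p = 0.0146), a call lost without Foxo1TKO replicate 2 or 3 or Foxo1Ctrl replicate 1, with adjusted p up to 0.0583. Bcl2l12 rose from 444 ± 42.7 to 849 ± 48.7 (log2 fold change 0.93, SE 0.16, adjusted p = 0.00494), and its exons overlap those of Irf3 on the other strand. The call of Bcl2l12 held with any library left out. Exons of Bid and Bcl2l13 overlap on opposite strands, and those of Bnip3 overlap the antisense gene Gm45507. As for Bcl2, reads of these pairs may be mixed.

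Bmf, a BH3-only gene, was at 34.7, 44.7 and 82.6 normalized counts in Foxo1TKO and at 17.9, 6.86 and 12.6 in Foxo1Ctrl libraries, with a log2 fold change of 2.03 (SE 0.48, adjusted p = 0.0191). It lost its call without Foxo1TKO replicate 3 or Foxo1Ctrl replicate 3. Bcl2a1c, an A1 copy of 2.91 to 21.1 normalized counts, was also called higher (log2 fold change 1.91, SE 0.43, adjusted p = 0.0159). Its call was lost without Foxo1TKO replicate 2 or Foxo1Ctrl replicate 1 or 3, with adjusted p up to 0.0698. Bcl2l2, Bcl2l13, Bcl2l14, Bad and Bcl2a1a were not called, with log2 fold changes from -0.65 to 0.26. Bik, Bok, Hrk, Bcl2l10 and Bcl2l15 had too few counts to be tested, and Bcl2l10 had none in any library.

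**Figure D3:**
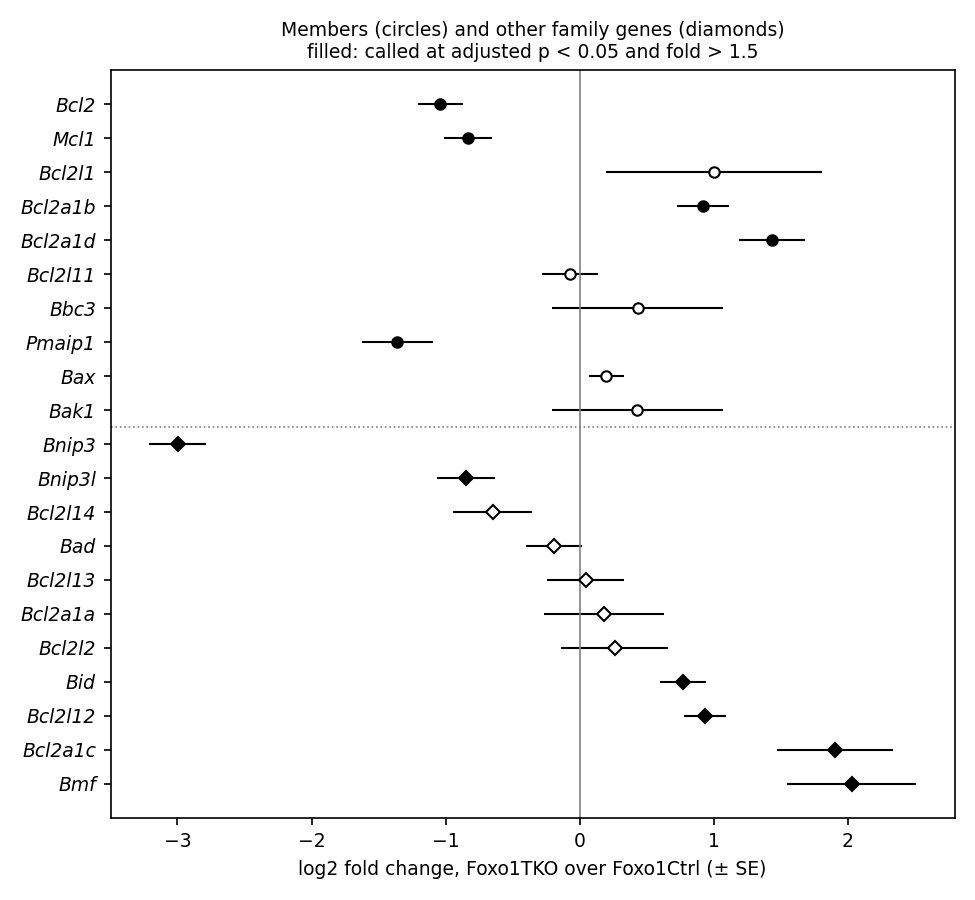
Log2 fold change of Foxo1TKO over Foxo1Ctrl with its SE for the 10 members (circles, above the dotted line) and the 11 other family genes tested (diamonds). Filled symbols were called. Bnip3, at -2.999, lies farthest from 0, and the open symbols of Bcl2l1, Bbc3 and Bak1 have the widest errors among the members.

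Steps around the family, and Foxo genes with known Foxo targets, were described by 7 further lists. With the other family genes, 37 of the 100 list genes tested were called, beside 23.0% of all genes. Without Foxo1TKO replicate 2 the count was 20 of 100, beside 13.5% of all genes in that fit. The 100 genes include 15 listed as Foxo genes and known Foxo targets, 8 called lower and 2 higher in the main fit. Il7r, whose receptor the paper describes as induced by Foxo factors, is in another of these lists. The pooled share is therefore not one of the steps around the family alone. Counts of each list below stand beside 11.1% of all genes called higher and 11.8% called lower. Of the 18 genes of the apoptosome, caspases and their inhibitors, 2 were called higher and 2 lower, and the list's median log2 fold change was -0.14. Apaf1, the scaffold that cytochrome c assembles, was at 347 ± 54.9 in Foxo1TKO and 609 ± 68.5 normalized counts in Foxo1Ctrl libraries (log2 fold change -0.81), and the caspase inhibitor Xiap at 607 ± 11.01 and 981 ± 80.6 (log2 fold change -0.69). The mitochondrial nuclease gene Endog was at 111 ± 26.6 and 37.6 ± 23.8 (log2 fold change 1.52). Each of these 3 calls was lost without Foxo1TKO replicate 2 or Foxo1Ctrl replicate 1, and that of Endog also without others. Apaf1 was not called with effective lengths as an offset, nor Xiap and Endog with the GC correction. Of 9 mitochondrial partners 1 was called, the Bcl2-binding cochaperone gene Bag1, at 1878 ± 970 in Foxo1TKO and 489 ± 332 in Foxo1Ctrl libraries (log2 fold change 1.93, SE 0.60, adjusted p = 0.0494). The genotypes overlapped for Bag1, with Foxo1TKO libraries from 776 and Foxo1Ctrl libraries up to 843 normalized counts. The call of Bag1 was lost without any of 4 libraries, Foxo1TKO replicates 2 and 3 and Foxo1Ctrl replicates 1 and 2. It was also lost with the GC correction.

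In the death receptor list, 2 of 11 genes were called higher and 1 lower. Fas, the receptor, rose from 2910 ± 353 to 5834 ± 1314 normalized counts (log2 fold change 1.00, SE 0.20, adjusted p = 0.00991). Tnfsf10, which encodes the ligand TRAIL, rose from 220 ± 29.9 to 926 ± 27.1 (log2 fold change 2.07, SE 0.17, adjusted p = 0.000235). Cflar, which encodes the caspase-8 inhibitor c-FLIP, fell from 2335 ± 327 to 1127 ± 60.8 (log2 fold change -1.05, SE 0.16, adjusted p = 0.00280). These 3 calls held with any library left out. The other 8 genes of the list were not called.

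Of 15 survival cytokine genes, 4 were called lower and 1 higher, with a median of -0.31. Il7r, the receptor chain through which IL-7 sustains Bcl2, fell from 8646 ± 2804 to 770 ± 119 normalized counts (log2 fold change -3.49, SE 0.28, adjusted p = 0.000191). The survival kinase genes Pim1 and Pim2 fell from 3195 ± 886 to 381 ± 61.4 (log2 fold change -3.06) and from 1673 ± 830 to 342 ± 211 (log2 fold change -2.28). Il4ra fell from 575 ± 149 to 250.4 ± 63.4 (log2 fold change -1.20). The calls of Il7r and Pim1 held with any library left out, while those of Pim2 and Il4ra were each lost without Foxo1TKO replicate 2, Foxo1Ctrl replicate 1 or Foxo1Ctrl replicate 3, and that of Pim2 also without Foxo1TKO replicate 3. The remaining called gene of the list, Stat5a, was higher.

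Pmaip1 and Bbc3 are known p53 targets, and the p53 list gave 2 genes called higher and 3 lower of 12 tested. Perp rose from 15.6 ± 1.65 to 109 ± 31.5 normalized counts (log2 fold change 2.72, SE 0.33, adjusted p = 0.00114). Aen was 0.73 higher on the log2 scale, Trp53inp1 had a log2 fold change of -0.73 and Mdm4, a p53 inhibitor, of -0.71. The calls of Perp and Mdm4 held with any library left out, but Mdm4 was not called with effective lengths as an offset. That of Trp53inp1 was lost without Foxo1TKO replicate 2 and with the GC correction, and that of Aen without any Foxo1TKO replicate or without Foxo1Ctrl replicate 1.

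Of 15 Foxo genes and known Foxo targets tested, 8 were called lower and 2 higher, with a median of -1.25. Klf2 fell from 653 ± 12.3 to 2.56 ± 3.04 normalized counts and S1pr1 from 8583 ± 2522 to 274 ± 12.5 (log2 fold changes -7.46 and -4.97), both regulators of lymphocyte exit from lymph nodes. Trib3 fell from 117 ± 77.2 to 3.45 ± 2.99 (log2 fold change -4.69). Klf2 and Trib3 held at most 7 and 6 counts in any Foxo1TKO library, so the size of their fold changes rests on few counts. The calls of Klf2, S1pr1 and Trib3 held with any library left out. Among genes of Mcl1 and Bim protein turnover, 2 of 9 tested were called higher and 1 lower. Fbxw7, a ubiquitin ligase component known to target Mcl1, fell from 1414 ± 460 to 531 ± 77.6 (log2 fold change -1.41, SE 0.25, adjusted p = 0.00563), called with any library left out. Dynll2, a dynein light chain that binds Bmf, was at 623 ± 363 in Foxo1TKO and 103 ± 56.1 in Foxo1Ctrl libraries (log2 fold change 2.58), a call lost without Foxo1TKO replicate 2.

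**Figure D4:**
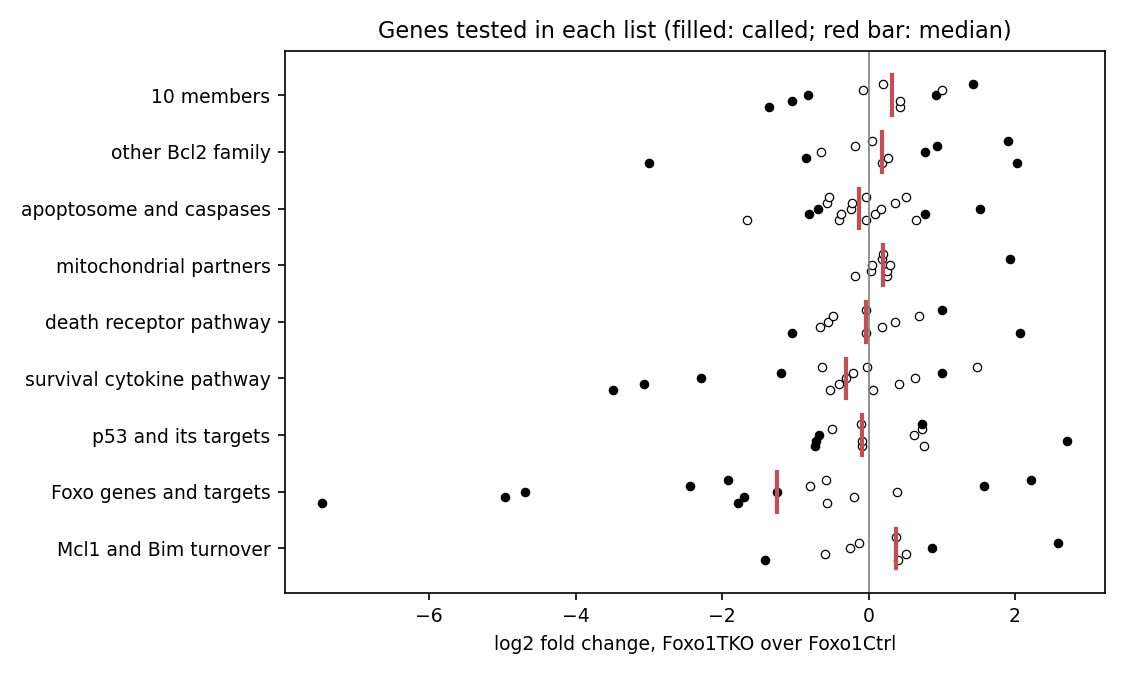
Log2 fold change of Foxo1TKO over Foxo1Ctrl for each gene tested in the members and 8 lists around them. Filled points were called and red bars are medians. The members lie on both sides of 0, and the Foxo genes and targets have the lowest median, -1.25.

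For each called member, the 3 genes with the most similar profile over the 6 libraries were taken by Pearson correlation of log2 normalized counts among 9235 genes. Bcl2 was closest to Stk4, Gbp7 and Atp2b1 (r = 0.998, 0.997 and 0.997). Mcl1 was closest to Dipk1a, H2aw and Ugcg (r = 0.999, 0.998 and 0.997). Bcl2a1b was closest to Ppa1, Eif1b and Sod2 (r = 0.998, 0.998 and 0.997) and Bcl2a1d to Cd200r4, Uap1 and Selenof (r = 0.999, 0.999 and 0.998). Pmaip1 was closest to Rad21, Ubl3 and Zfp101 (r = 0.998, 0.994 and 0.993). These points are 6 libraries of 2 genotypes, and a search among so many genes returns high values. How far each r reflects a difference between genotypes or the order of libraries within them was not tested.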

How the data were processed

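RNA-seq was compared between 3 Foxo1TKO and 3 Foxo1Ctrl cultures, grouped by the genotypes in their labels. Per the study's methods and processing notes, the aligner was STAR 2.7.6a on the GRCm38 genome (Ensembl release 101), with reads mapping to up to 10 loci kept. The authors deposited RSEM 1.3.1 expected counts, TPM and effective lengths (length units, used only as an offset). A table of normalized signal deposited by the authors was made with DESeq2 size factors and effective lengths.

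Expected counts were rounded, and genes reaching 10 counts in 3 or more libraries were tested with edgeR 4.0.16 (TMM, glmQLFit, glmQLFTest, prior count 1, genotype as the only term) in R 4.3.3. The SE is the log2 fold change divided by the square root of F. The study used DESeq2, run here as an alternative (1.42.0), with limma 3.58.1 (voom, or log2 of the signal with pseudocount 1 or 10), other scalings and filters, effective lengths, a replicate block, and each library left out. A GC correction and the alternatives for the gene lists were added after seeing the data. Whether same-numbered samples form pairs is not stated in the sources used here, and the main fit treated them as unpaired. The paper used paired tests for the flow cytometry of such cultures. The test was tried on simulated counts. Positions are from GENCODE M21 (GRCm38), sequences from it or RefSeq (GRCm38.p6).

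The members and lists were chosen with earlier results of these data known. All members are reported. From each list the up to 4 called genes with the largest change and a mean of at least 50 normalized counts are named, with every other family gene tested. Some genes of the lists are not reported here. Profiles were compared among genes with a mean of at least 100. Stat5a, Zbtb46 and Flt3 were named after their values were seen. The plots used matplotlib 3.10.9.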

Additional observations from a re-analysis of the deposited data

How the results depend on the processing

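The 5 member calls were kept in 89 of 90 values over 18 alternatives, and none of the 5 members that were not called became so. The exception was Bcl2a1b without Foxo1TKO replicate 2. The number of members called was 4 to 5 with a library left out. The share of all genes called ran from 13.5% without Foxo1TKO replicate 2 to 24.3% without Foxo1Ctrl replicate 2, against 23.0% in the main fit. Reversed signs occurred only in genes that were not called. With a library left out, log2 fold changes ran from -0.021 to 1.56 for Bcl2l1, -0.048 to 1.12 for Bbc3, -0.42 to 0.82 for Bak1, -0.29 to 0.035 for Bcl2l11, -0.14 to 0.43 for Bcl2a1a, -0.072 to 0.56 for Bcl2l2 and -0.19 to 0.25 for Bcl2l13. Leaving out Foxo1TKO replicate 1 gave the negative values of Bcl2l1, Bbc3 and Bak1. Bax was at -0.13 with the GC correction and -0.11 with the replicate block and GC correction. Bcl2l13 was at -0.021 and -0.022 on the deposited normalized values with pseudocount 1 and 10, and at -0.062 with the effective length offset. The cause was not tested. Called list genes numbered 37 and ran from 20 to 35 with a library left out, beside the same shares of all genes. Of the 29 called genes outside the members that met the rule for naming, 14 were called in all 6 such fits. Apaf1 and Mdm4 were not called on the deposited normalized values or with effective lengths, Xiap and Trp53inp1 not with the GC correction, and Endog and Bag1 not with the GC correction, Bag1 also not with limma-voom. Same-numbered samples correlated at 0.46, 0.23 and -0.14. With 3 libraries a genotype, these values cannot decide whether the numbers pair the samples. The replicate block called 5 members, 38 list genes and 3318 genes in all, against 3144. Foxo1TKO replicates 1 and 2 and Foxo1Ctrl replicate 1 correlated best with their own number, and the other 3 libraries did not.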
